A study of Mus musculus with 6 samples.

Results

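The genes described here are 8 members of the Ms4a family, Ms4a1, Ms4a4a, Ms4a4b, Ms4a4c, Ms4a6b, Ms4a6c, Ms4a6d and Ms4a7, in immune cells of mouse melanoma. They were matched by symbol to the gene list of the single-cell count matrices, which holds 32285 genes, 19 of them with an Ms4a symbol. The question was which paralog is found in which immune cell, and how its level stood in each treatment group.

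Ms4a genes encode small membrane proteins that cross the membrane several times, and several of them sit beside immune receptors and adjust their signaling. Ms4a1 encodes CD20, the B cell surface protein that B cell–depleting antibodies bind. Ms4a4b protein associates with the costimulatory receptor GITR (gene Tnfrsf18) in T cells. Ms4a4a protein associates with the β-glucan receptor Dectin-1 (gene Clec7a) in macrophages, and Ms4a7 is known as a gene of tissue and tumor macrophages.

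CD45+ cells were isolated with beads from B16-F10 tumors, a transplanted mouse melanoma, grown in female C57BL/6 mice that were 6 to 10 weeks old. The αPD-1 group has 3 samples and its mice received 150 μg of antibody against the checkpoint receptor PD-1, 3 times per week from day 7. The αPD-1 + corin group has 3 samples from mice that received the same antibody and also 200 μg per day of corin, an inhibitor of the CoREST complex and its LSD1 and HDAC1 enzymes, from day 6. All 6 samples therefore carry αPD-1, and no untreated tumor enters the comparisons. Of the 10 mice per arm, those behind each sample are not named in the labels, so the p-values below measure the spread between these samples, which may be technical. Cells had been frozen, and dead cells were removed before the isolation.

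All 8 members lie in one cluster on chromosome 19, between positions 11227039 and 11582213 of GRCm39, a span of 355.2 kb, and each is annotated as protein coding. Ms4a1 (11227039 to 11243605), Ms4a7 (11298403 to 11313510) and Ms4a6d (11563968 to 11582213) lie on the minus strand. The other 5 members lie on the plus strand and follow each other as Ms4a4a (11352823 to 11370154), Ms4a4c (11382131 to 11404610), Ms4a4b (11412557 to 11444419), Ms4a6c (11446718 to 11462204) and Ms4a6b (11493876 to 11508620). Within the cluster, Ms4a4b and Ms4a4c are the closest pair, with 91.7% identity over their coding sequences. Ms4a6b has 79.8% identity with Ms4a6d and 74.0% with Ms4a6c. Despite this, few read-sized stretches are shared. Of all 90-base windows in the annotated transcript of each gene, 2.31% of those in Ms4a4c occur in Ms4a4b and 0.397% of those in Ms4a6c occur in Ms4a6b, and Ms4a1, Ms4a4a, Ms4a6d and Ms4a7 shared none with another member.

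Promoter windows, from 250 bases before to 50 after the transcription start, were taken from RefSeq (GRCm38.p6), which gave 7 windows for 6 members. Ms4a1 and Ms4a6d were not matched. The windows of the neighbours Ms4a4c and Ms4a4b are shown because these genes have nearly the same coding sequence and were found in different cells. They have 72.1% identity, and capitals mark a shared stretch of 20 bases before the start site, from −38 in Ms4a4c and −41 in Ms4a4b. Another run of the same length, after the start site, is also shared and is left in lower case.
Ms4a4c promoter, chr19:11407411-11407710, plus strand: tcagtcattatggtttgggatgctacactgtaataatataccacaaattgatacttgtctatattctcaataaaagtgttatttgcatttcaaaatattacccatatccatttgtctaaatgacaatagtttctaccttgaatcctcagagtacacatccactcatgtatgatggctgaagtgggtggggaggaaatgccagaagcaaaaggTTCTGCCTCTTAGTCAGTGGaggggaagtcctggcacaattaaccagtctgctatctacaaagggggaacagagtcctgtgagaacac
Ms4a4b promoter, chr19:11443308-11443607, plus strand: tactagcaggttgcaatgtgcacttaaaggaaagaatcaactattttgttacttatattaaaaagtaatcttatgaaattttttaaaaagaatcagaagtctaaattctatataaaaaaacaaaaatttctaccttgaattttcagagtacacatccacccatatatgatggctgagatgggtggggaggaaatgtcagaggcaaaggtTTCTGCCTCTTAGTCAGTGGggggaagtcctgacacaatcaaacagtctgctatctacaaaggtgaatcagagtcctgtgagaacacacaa

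The windows of Ms4a6c and Ms4a6b are shown as the other pair of neighbours with a long shared stretch, since both were highest in monocytes and T cells were rich in Ms4a6b alone. They have 51.2% identity as aligned, and share a run of 48 bases, in capitals, which starts at −49 in Ms4a6c and −118 in Ms4a6b.
Ms4a6c promoter, chr19:11469118-11469417, plus strand: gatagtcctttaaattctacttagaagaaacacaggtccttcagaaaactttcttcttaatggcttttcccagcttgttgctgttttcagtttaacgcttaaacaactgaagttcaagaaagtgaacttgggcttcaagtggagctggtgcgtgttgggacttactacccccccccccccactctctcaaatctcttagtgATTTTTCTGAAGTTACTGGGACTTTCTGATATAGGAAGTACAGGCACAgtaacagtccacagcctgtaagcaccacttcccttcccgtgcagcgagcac
Ms4a6b promoter, chr19:11518309-11518608, plus strand: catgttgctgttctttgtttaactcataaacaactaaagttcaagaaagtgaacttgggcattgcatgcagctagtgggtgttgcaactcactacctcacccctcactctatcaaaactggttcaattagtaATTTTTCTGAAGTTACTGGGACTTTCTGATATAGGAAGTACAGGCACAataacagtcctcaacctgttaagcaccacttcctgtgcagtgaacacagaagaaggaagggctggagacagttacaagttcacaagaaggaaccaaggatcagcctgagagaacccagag

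The letters GAAANNGAA, on either strand, are one spacing of the interferon-response motif, and they occur in 8.56% of 32851 promoter windows of this length. They were found in both Ms4a7 windows (−71 and −148), in Ms4a6c (−133) and in Ms4a6b (−206), and not in the windows of Ms4a4a, Ms4a4b or Ms4a4c. The STAT-type letters TTCNNNGAA (8.30% of windows) and the ETS-type letters GAGGAAGT (3.2%) were found in none of the 7 windows. Other spellings of these motifs were not searched.

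Of 52899 barcodes, 28865 passed the filters and 25828 were in immune clusters, between 3525 and 6576 per sample. Total UMIs per sample ranged from 52281422 to 84276739, and the median UMI count of kept cells from 2814.5 to 4134.5. Each class name below means that a cluster resembles that type by its markers (B cell–like and so on), and no Ms4a gene was used to name or to build clusters. Classes were B cells, plasma cells, T cells, NK cells, monocytes, macrophages, conventional dendritic cells types 1 and 2 (cDC1, cDC2), mature dendritic cells, plasmacytoid dendritic cells (pDC) and neutrophils. The monocyte class also carried 7 of 8 nonclassical monocyte markers. Clusters of cells with markers of 2 lineages held 2827 cells and were left out of the classes. They made up 14.7% to 19% of immune cells in αPD-1 and 2.81% to 11.2% in αPD-1 + corin. Pairs of libraries shared 1 to 15 kept barcodes.

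Class sizes differed greatly between the groups. There were 800, 712 and 1085 B cells under αPD-1 and 42, 47 and 11 under αPD-1 + corin, while macrophages numbered 890, 933 and 787 against 4475, 1281 and 1432. Neutrophils were 24, 19 and 20 against 707, 1236 and 123. Levels are therefore given as counts of the gene per 1000000 UMIs of the class (CPM), by sample, and were compared between classes and samples for 1 gene at a time, never between genes. A class against another class is a description, since the clusters were built from the same cells.

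The members divided between lymphoid and myeloid classes. Ms4a1 was highest in B cells and Ms4a4b in NK cells, then T cells. Ms4a4a, Ms4a4c, Ms4a6b, Ms4a6c and Ms4a6d were highest in monocytes, and Ms4a7 in macrophages. This top class was the same for every member in the 4 other clusterings run for levels and with each sample left out in turn.

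**Figure D1:**
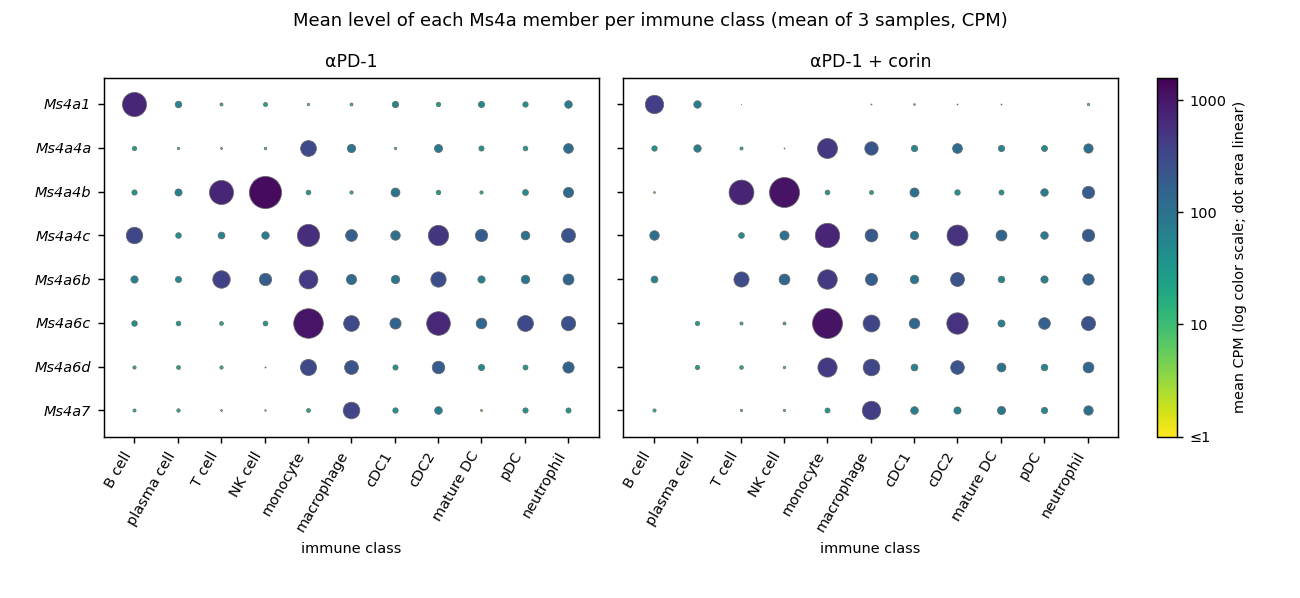
Mean CPM of the 8 members (rows) in 11 immune classes (columns) for αPD-1 (left) and αPD-1 + corin (right); dot area is linear in the mean, color is on a log scale, a mean of 0 has no dot, and plasma cells of αPD-1 + corin rest on 1 sample. Ms4a1 stood out in B cells, Ms4a4b in NK and T cells, Ms4a6c in monocytes and cDC2, and Ms4a7 in macrophages.

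Ms4a1 had its highest level in B cells in every sample. Its level in B cells was 712, 758 and 669 CPM in αPD-1 and 419.6, 516 and 315 CPM in αPD-1 + corin, from 1303, 1267 and 1592 UMIs against 22, 43 and 6. The lowest αPD-1 sample lay above the highest αPD-1 + corin sample, and the smallest count left a wide exact Poisson 95% interval, 115 to 685 CPM, which covers counting error only. The mean over 6 samples was 565 ± 176 CPM (SD), against 57.0 ± 9.7 CPM in plasma cells (n = 4 samples with at least 5 cells), the next class, with no overlap between them. B cells held 52.2%, 65.4% and 59.8% of the Ms4a1 UMIs of immune cells in αPD-1, and 20.0%, 45.7% and 20.7% in αPD-1 + corin, where they were few. Macrophages held 26.4%, 6.38% and 20.7% of them in αPD-1 + corin and neutrophils 34.5%, 27.7% and 3.45%, at levels of 0.871 to 1.74 and 2.00 to 14.5 CPM. After thinning each cell to 1000 UMIs, 47.8%, 49.6% and 47.0% of αPD-1 B cells and 33.8%, 36.8% and 26.9% of αPD-1 + corin B cells had an Ms4a1 UMI. Cells under that depth were left out, which kept 758 of 800, 689 of 712 and 1042 of 1085 cells in αPD-1 and 37 of 42, 45 of 47 and 11 of 11 in αPD-1 + corin. Before thinning the shares were 65.1%, 70.65% and 66.3% against 38.1%, 53.2% and 36.4%. In T cells, which should lack it, the shares after thinning were 0.556%, 0.553% and 1.39% against 0, 0 and 0.0412%, at median depths of 1753.5 to 2973 UMIs per cell against 1207 to 1943.5 in B cells. Over the class means, genes with a pattern like that of Ms4a1 included Pax5 (r = 0.99), the B lineage transcription factor, and Fcmr (r = 0.98), an IgM receptor. These likeness values are descriptions over 11 classes that come from the same 6 libraries, chosen among 9136 genes.

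Ms4a4b was the NK and T cell member. In NK cells it was at 1201, 1299 and 1299.6 CPM in αPD-1 and 1006, 1132 and 1172 CPM in αPD-1 + corin, a mean of 1185 ± 111 CPM. T cells followed at 749.5, 714 and 669 against 937, 567 and 766 CPM, with a mean of 734 ± 122 CPM. The NK samples all lay above the T cell samples, and the T cell samples all lay above the third class, neutrophils, at 157 ± 109 CPM. Neutrophils carried all 12 T cell markers at 20 CPM or more, and their ratio of Ms4a4b to the T cell receptor gene Trac, 178 UMIs per 100, was near that of T cells, 217 per 100. NK cells had 1823 Ms4a4b UMIs per 100 Trac UMIs. Thinned shares with a UMI were 59.4% to 67.7% in NK cells (79.6% to 90.8% before thinning) and 38% to 49.4% in T cells (61.4% to 78.6%), against 0.896% to 1.54% in macrophages at median depths of 2991 to 4668 UMIs. The most alike genes were the cytotoxic lymphocyte receptor genes Cd160 (r = 0.99) and Klrc1 (r = 0.98), and Sytl2 (r = 0.98).

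Within T cells, Ms4a4b was found in every state. Cytotoxic T cells had 1032, 882 and 893 CPM in αPD-1 and 1407, 689 and 806 CPM in αPD-1 + corin. Regulatory T cells had 636, 668 and 580.2 against 683, 404 and 699 CPM, and naive T cells 680.5, 679 and 668 against 944, 371 and 369.8 CPM, the last from only 9, 8 and 11 UMIs. Ranges of all states overlapped.

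Ms4a6b was shared by myeloid and T lineage cells. Monocytes had 455, 485 and 369 CPM in αPD-1 and 449, 501 and 449 CPM in αPD-1 + corin. T cells had 426, 339 and 356 against 305, 229.7 and 311 CPM, so that every αPD-1 sample lay above every αPD-1 + corin sample. In cDC2 it was at 299, 316 and 245 against 199, 266 and 249 CPM. Means over 6 samples fell from 451 ± 45.7 in monocytes through 328 ± 64.9 in T cells and 262 ± 42.1 in cDC2 to 165 ± 31.8 CPM in NK cells, and each of these classes overlapped the next. NK cells, where Ms4a4b was highest, thus carried less Ms4a6b than T cells in the mean. In B cells Ms4a6b was at 53.3 to 78.6 CPM in αPD-1. Regulatory T cells had 460.0, 368 and 461 CPM in αPD-1 against 332, 266 and 332 CPM in αPD-1 + corin, again without overlap. The most alike genes were S100a10 (r = 0.92), which encodes an annexin partner, Casp8 (r = 0.91), an apoptotic caspase, and Gbp7 (r = 0.90), an interferon-inducible GTPase.

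Ms4a6c marked monocytes. It was at 1187, 1026 and 1006 CPM in αPD-1 and 982, 1208 and 1106 CPM in αPD-1 + corin, a mean of 1086 ± 96.3 CPM, and 58.5% to 66% of monocytes had a UMI after thinning (86.7% to 92.3% before). In T cells this share was 0.905% to 1.73%, at median depths of 1753.5 to 2973 UMIs against 3184.5 to 4343 in monocytes. The groups overlapped in monocytes. cDC2 came next at 754, 714 and 589 against 489, 600.3 and 596 CPM, and macrophages after them at 257, 332 and 323 against 351, 385 and 312 CPM. The 3 classes did not overlap, so that this gene fell stepwise from monocytes to cDC2 to macrophages. pDC had 341, 252 and 342 CPM in αPD-1 and 172, 61.8 and 266 CPM in αPD-1 + corin. In B cells it was at 31.7 to 43.1 CPM in αPD-1, and no UMI was seen in αPD-1 + corin, where 3 UMIs would have been 57.2, 36.0 and 157 CPM, limits that lie above or within the αPD-1 range. The most alike genes were Gm46224 (r = 0.98), Cd300a (r = 0.98), an inhibitory myeloid receptor, and Tppp3 (r = 0.97).

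Ms4a4c, the near copy of Ms4a4b, followed the monocytes and not the lymphocytes, apart from B cells. Monocytes had 657, 645 and 516 CPM in αPD-1 and 707, 742 and 739 CPM in αPD-1 + corin, and all 3 αPD-1 + corin samples were the higher ones. In cDC2 it was at 554, 513 and 448 against 482, 643 and 487 CPM. T cells had 34.6 to 67.4 CPM and NK cells 25.8 to 121 CPM. Over the 11 class means, the correlation of Ms4a4c with Ms4a4b was −0.48, and between Ms4a6c and Ms4a6d it was 0.93. B cells had 325, 296 and 383 CPM of Ms4a4c in αPD-1 and 38.1, 84.1 and 209.8 CPM in αPD-1 + corin, from 596, 494 and 913 UMIs against 2, 7 and 4. After thinning, 26.2%, 24.0% and 31.0% against 4.07%, 12.4% and 15.6% of B cells had a UMI. The groups did not overlap, although the exact Poisson interval of the third αPD-1 + corin sample, 57.2 to 537 CPM, covers the αPD-1 values. The most alike genes were Daxx (r = 0.93), Tnfrsf12a (r = 0.91) and Slfn2 (r = 0.91), an interferon-inducible gene.

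Ms4a4a was highest in monocytes, at 337, 287 and 296 CPM in αPD-1 and 476, 617 and 372 CPM in αPD-1 + corin. The groups did not overlap, and thinned shares were 24.5%, 23.5% and 23.8% against 33.3%, 37.4% and 29.0% (52.1% to 63.8% before thinning). In T cells the thinned share was 0.226% to 1.94%. Macrophages were more uneven. They had 72.8, 69.9 and 111 CPM in αPD-1 and 284, 315 and 63.3 CPM in αPD-1 + corin. Samples 1 and 2 of αPD-1 + corin were high, while sample 3 was the lowest of all 6. cDC2 showed the same split at lower levels, with 59.3, 62.3 and 116 against 132, 193 and 26.7 CPM. Pla2g7 (r = 0.97), a phospholipase of platelet-activating factor, Gm5150 (r = 0.96) and Pilra (r = 0.96), an inhibitory receptor, were most like it.

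Ms4a6d showed nearly the same class pattern as Ms4a4a, with r = 0.93 between them over 11 classes. Monocytes had 311, 351 and 302 CPM in αPD-1 and 445, 521 and 395 CPM in αPD-1 + corin, without overlap. Macrophages had 229, 234 and 245 against 421, 405 and 197 CPM. As for Ms4a4a, sample 3 of αPD-1 + corin lay below all αPD-1 samples. T cells had 7.27 to 18.7 CPM. Means were 388 ± 84.6 CPM in monocytes and 289 ± 97.9 CPM in macrophages, with overlap. The most alike genes were Fcgr1 (r = 0.99), the high-affinity IgG receptor, Gda (r = 0.98), a guanine deaminase, and Lst1 (r = 0.98).

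Ms4a7 separated macrophages from monocytes. Macrophages had 301, 395 and 322 CPM in αPD-1 and 416, 446 and 398 CPM in αPD-1 + corin. All 3 αPD-1 + corin samples were above all αPD-1 samples, the nearest pair being 398 and 395 CPM. After thinning, 18.2%, 21.8% and 18.6% of macrophages had a UMI in αPD-1 and 28.9%, 29.2% and 24.1% in αPD-1 + corin, against at most 0.652% of T cells. Before thinning these were 36.6% to 48.1% and 48.5% to 60%. Monocytes had 14.0, 8.60 and 32.0 against 32.7, 55.1 and 5.83 CPM. Macrophages had a mean of 380 ± 56.3 CPM and did not overlap any other class, and they held 80.8% of all Ms4a7 UMIs of immune cells, averaged over samples, with 36.2% of all UMIs. The ratio of Ms4a7 to the complement gene C1qa was 21.0 UMIs per 100 in macrophages, 24.5 in monocytes, 31.1 in neutrophils and 34.5 in T cells, while the ratio of Ms4a4a to C1qa was 436 per 100 in monocytes and 10.5 in macrophages. C1qc (r = 0.97), a complement gene of macrophages, Snx24 (r = 0.96) and Zfp704 (r = 0.96) were most like it.

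**Figure D2:**
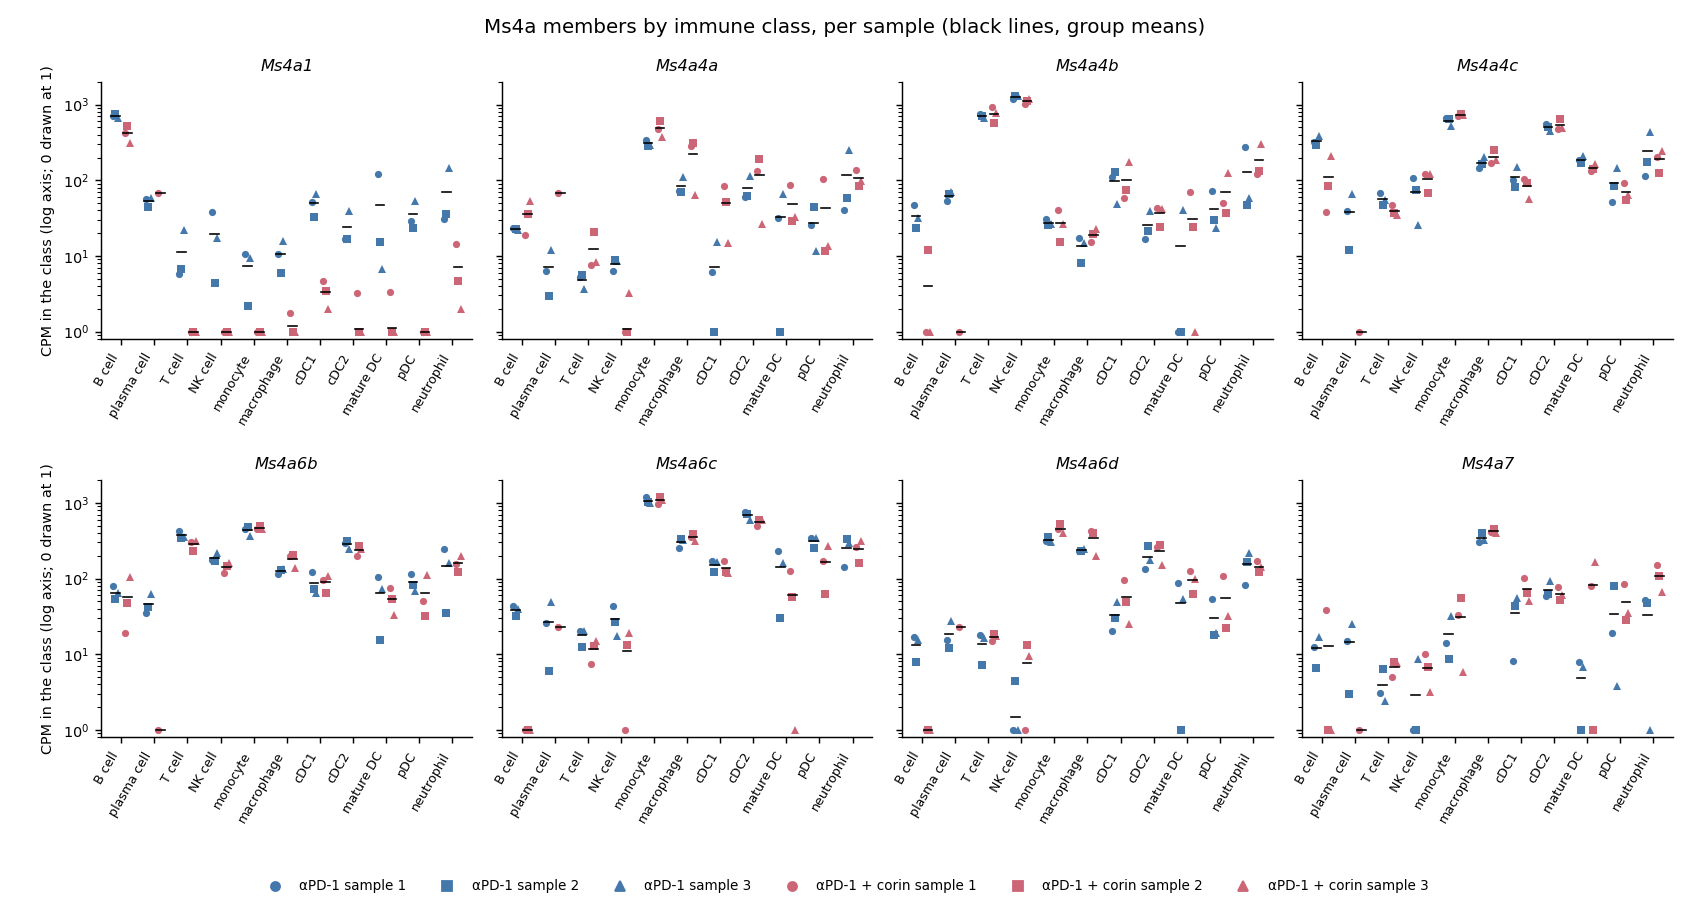
CPM of each member (panels; log axis, 0 drawn at 1) in 11 immune classes, with 1 point per sample with at least 5 cells, αPD-1 in blue and αPD-1 + corin in red, and black lines for group means. The αPD-1 + corin points of Ms4a4c in B cells (38.1 to 209.8 CPM) lie below the αPD-1 points (296 to 383 CPM), and Ms4a4a in macrophages is split within αPD-1 + corin (63.3 to 315 CPM).

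Macrophages were made of different states in the 2 groups, which bears on every value given for them as a whole. A state led by Lyve1 and Folr2, genes of perivascular resident macrophages, held 57, 50 and 31 cells in αPD-1 and 1308, 236 and 102 in αPD-1 + corin. A state led by Ppbp and Ccl24 held 4, 7 and 16 against 788, 177 and 14 cells, and a hypoxic state with Mmp12 held 126, 81 and 94 against 825, 215 and 113. A state with interferon-induced genes, whose leading genes also include the heat shock genes Hspa1a and Hspa1b, held 128, 110 and 123 against 9, 11 and 94 cells. A cycling state held 44, 139 and 34 against 99, 46 and 92 cells, and the rest had no named state.

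Ms4a7 was highest in cycling macrophages, at 709.5, 709.8 and 683 CPM in αPD-1 and 564, 739.8 and 737 CPM in αPD-1 + corin. The Lyve1 Folr2 state followed at 408, 511 and 545 against 394, 579 and 494 CPM. These 2 states had overlapping groups. Hypoxic macrophages had 70.9, 112 and 55.4 CPM in αPD-1, and 299, 307 and 112 CPM in αPD-1 + corin. In the interferon state it was at 117, 88.6 and 85.3 against 259, 401 and 154 CPM, the last from 5, 19 and 35 UMIs. Both of these states were thus higher in αPD-1 + corin in all samples, although the nearest pair in the hypoxic state was 112 in both groups. In the Ppbp Ccl24 state it was at 258 and 166 CPM in the αPD-1 samples with at least 5 such cells, from 7 and 11 UMIs, and at 368, 476 and 559 CPM in αPD-1 + corin, also without overlap.

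Ms4a4a had another order of states. In the Ppbp Ccl24 state it was at 460.3, 586 and 385 CPM in αPD-1 + corin, and at 147 and 136 CPM in the αPD-1 samples with at least 5 such cells, from 4 and 9 UMIs. The hypoxic state had 191, 193 and 317 against 269, 387 and 206 CPM, with overlap. In the Lyve1 Folr2 state it was at 105, 144 and 152 against 288, 387 and 94.8 CPM, and in cycling cells, where Ms4a7 was highest, at only 31.3, 15.8 and 24.1 against 125, 127 and 38.6 CPM. Sample 3 of αPD-1 + corin was the lowest of its group in each of the 4 states, and in the Lyve1 Folr2 state it was below all αPD-1 samples.

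Ms4a4c had its highest mean over both groups in the interferon state, at 473, 513 and 457 CPM in αPD-1 and 467, 907 and 427 CPM in αPD-1 + corin. Hypoxic macrophages had 249.96, 313 and 356 against 191, 301 and 439.6 CPM. The Lyve1 Folr2 state was low, at 39.2, 35.3 and 104 against 106, 154 and 123 CPM. Cycling macrophages, where Ms4a7 was highest, had 54.2 to 205 CPM of Ms4a4c. One αPD-1 sample had 1178 CPM in the Ppbp Ccl24 state, from 32 UMIs in 7 cells, which made the Ppbp Ccl24 mean the highest within αPD-1. The other samples with at least 5 such cells had 212 to 308 CPM.

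The 3 Ms4a6 genes had their highest mean over both groups in the Ppbp Ccl24 state, where the αPD-1 values rest on 7 and 16 cells. Within αPD-1 + corin the mean of Ms4a6c was higher in the cycling state, 436 against 413 CPM. In the Ppbp Ccl24 state Ms4a6c was at 515 and 499 CPM in the αPD-1 samples with at least 5 cells and at 419.8, 432 and 385 CPM in αPD-1 + corin. Over the other states its samples ranged from 224 to 497 CPM. Ms4a6d in the Ppbp Ccl24 state was at 626 and 408 against 536, 598 and 347 CPM. Ms4a6d in the Lyve1 Folr2 state was at 347, 365 and 365 against 492, 501 and 235 CPM, and in the interferon state at 177 to 239 CPM in αPD-1. Ms4a6b in cycling macrophages was at 87, 70.1 and 108 CPM in αPD-1 and 205, 179 and 156 CPM in αPD-1 + corin, without overlap. No member had a state whose samples all lay above those of the next state.

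**Figure D3:**
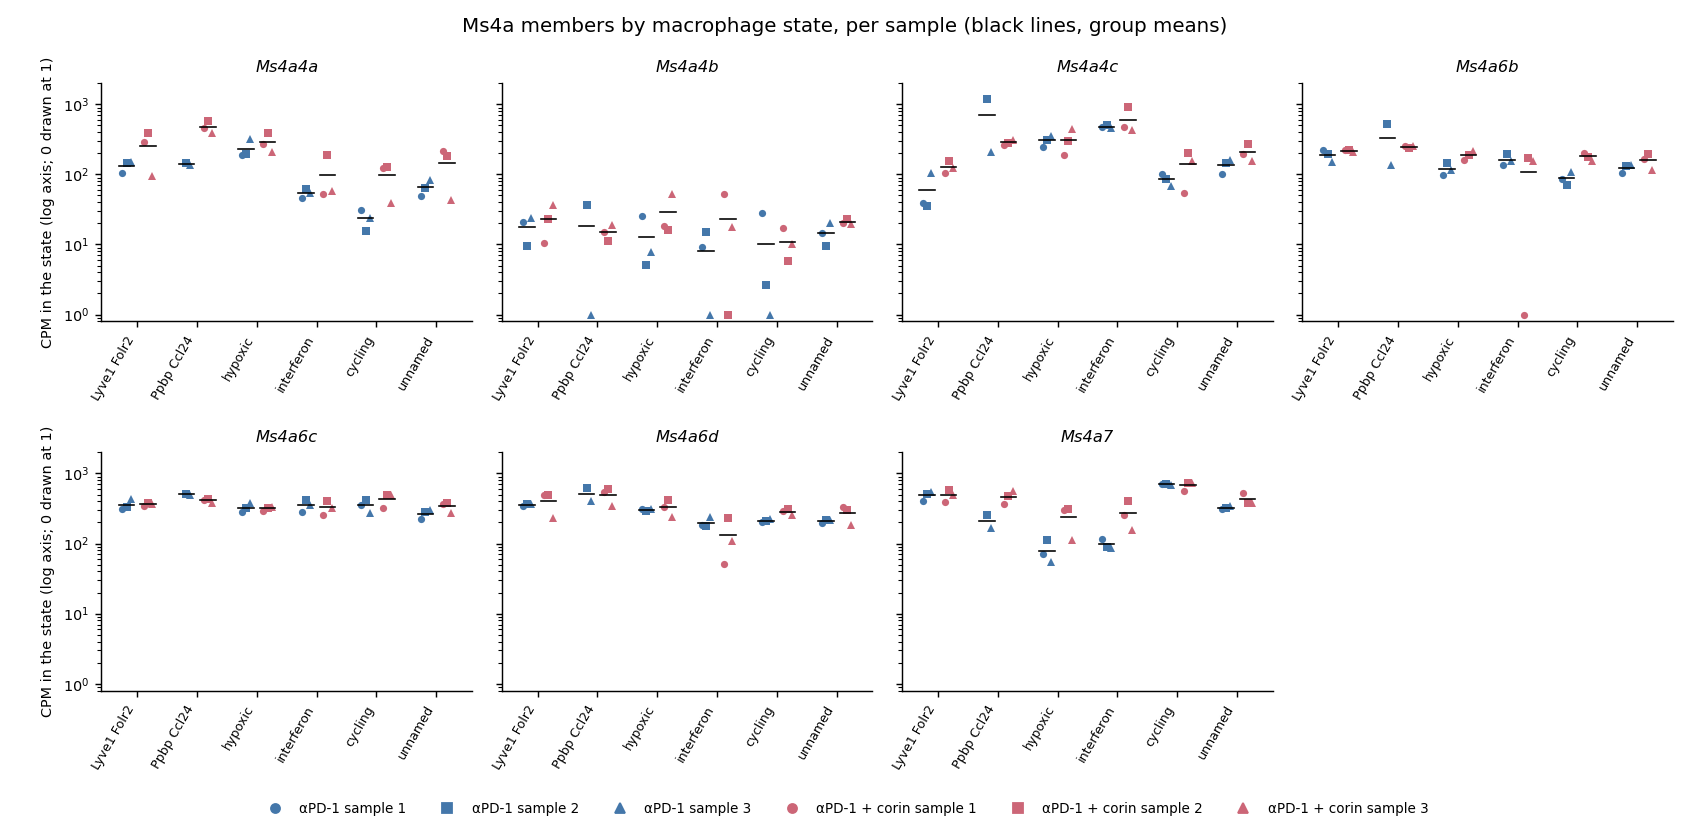
CPM of 7 members (panels; log axis, 0 drawn at 1) in 6 macrophage states, with 1 point per sample with at least 5 cells and black lines for group means. Ms4a7 has its highest means in the cycling state (564 to 739.8 CPM), where Ms4a4c is at 54.2 to 205 CPM, and Ms4a4c is at 427 to 907 CPM in the interferon state and at 1178 CPM in 1 αPD-1 sample of the Ppbp Ccl24 state.

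Members were also paired within single macrophages after thinning to 1000 UMIs. The share of cells with UMIs of both genes was divided by the product of the 2 single shares, so that 1 means no association. For Ms4a4a with Ms4a4c this ratio had a median of 1.59 over 6 samples (range 1.48 to 1.99), and for Ms4a6c with Ms4a6d 1.34 (1.2 to 1.44). Ms4a4c with Ms4a7 had 0.79 (0.69 to 1.08) and Ms4a4a with Ms4a7 1.03 (1.00 to 1.18). In T cells the ratio of Ms4a4b with Ms4a6b was 1.18 (1.13 to 1.36). These are descriptions over the cells of 6 libraries and mix states, with no test.

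The treatment groups were compared within each class by edgeR's quasi-likelihood test on summed UMIs, with Benjamini-Hochberg adjustment over all genes tested in the class and 3 samples against 3. Fold changes below are αPD-1 + corin over αPD-1, on the log2 scale, with standard errors.

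In B cells, 2 of 7 members tested were lower in αPD-1 + corin, where 1.75% of all genes tested were called. Ms4a4c changed by −2.07 ± 0.36 (adjusted p = 1.04e-05), the larger of these changes, and Ms4a1 by −0.74 ± 0.22 (adjusted p = 0.0495), at the threshold. Ms4a6c, with 0 UMIs in all 3 αPD-1 + corin samples, did not pass (adjusted p = 0.0563), and no fold is given for it. The median over all genes in B cells was −0.20. The plasma cell markers in B cells summed to 319 to 358 CPM in αPD-1 and 360 to 787 CPM in αPD-1 + corin. The B cell markers summed to 11978 to 12207 against 8969 to 11312 CPM, and the T cell markers to 142 to 266 against 0 to 52.5 CPM. The groups did not overlap for any of these lists. Their part in the changes of Ms4a4c and Ms4a1 was not tested. The call of Ms4a1 was lost when any sample other than αPD-1 + corin sample 2 was left out (−0.58 to −0.73, adjusted p = 0.0504 to 0.215). Ms4a4c kept its call each time, also without αPD-1 + corin sample 3, the sample with 11 B cells (−2.44, adjusted p = 0.000579, with 0.647% of all genes called). With cells left out that carried at least 2 UMIs of the T cell or of the macrophage markers, the changes were −2.19 and −0.80 (adjusted p = 3.77e-06 and 0.0240). Monocyte and plasma cell markers were not used in that step. For the thinned shares of cells with a UMI, the exact permutation test gave both genes 0.1, its lowest p for 3 against 3 samples (p = 0.16 adjusted over 8 members). Of 14 genes of the B cell surface and its signaling, Cd22, Cd79a and Pax5 among them, edgeR called 0 in B cells, with 6 at an unadjusted p under 0.05 (13.8% of all genes) and 2 called by DESeq2 (2.25%), and their median was −0.37.

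In T cells 3 of 8 members were called, against 18.8% of all genes tested. Ms4a4c was lower (−0.53 ± 0.18, adjusted p = 0.0498) and Ms4a4a higher (1.34 ± 0.41, adjusted p = 0.0359), both at low levels, since Ms4a4a was at 3.62 to 5.62 CPM in αPD-1 and 7.5 to 20.8 CPM in αPD-1 + corin. Ms4a4c was not called without αPD-1 sample 1 or 3 or αPD-1 + corin sample 2 or 3 (−0.38 to −0.55), nor Ms4a4a without any 1 of the αPD-1 samples or αPD-1 + corin sample 2 (0.82 to 1.49). The macrophage marker list in T cells summed to 122 to 205 CPM in αPD-1 and 207 to 357 CPM in αPD-1 + corin, with 4 of its 12 genes at 20 CPM or more. The classical monocyte list summed to 651 to 742 against 1122 to 1189 CPM there, with 4 of its 10 genes at that level, and the nonclassical list to 479 to 521 against 547 to 804 CPM. The part of these cells in the Ms4a4a result was not tested. Ms4a1 was lower in T cells (adjusted p = 0.00177), from 13, 20 and 36 UMIs against 0, 0 and 2. Ms4a1 had 35.0 UMIs per 100 Cd79a UMIs in T cells and 36.3 in B cells, and the B cell markers in T cells summed to 174 to 312 CPM in αPD-1 and 21.1 to 77.5 CPM in αPD-1 + corin. Cells with at least 2 UMIs of the B cell or of the macrophage markers were then left out. Ms4a1 no longer passed the filter on low counts, Ms4a4a kept its call (1.27, adjusted p = 0.0336) and Ms4a4c lost it (−0.37, adjusted p = 0.188). Monocyte and neutrophil markers were not used in that step. The abundant T cell members were not called, Ms4a4b at 0.15 ± 0.17 (adjusted p = 0.577) and Ms4a6b at −0.34 ± 0.15 (adjusted p = 0.138).

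T cell states also differed in size between groups. Naive T cells numbered 431, 384 and 266 in αPD-1 and 7, 11 and 18 in αPD-1 + corin, and cytotoxic T cells 67, 109 and 93 against 48, 72 and 523. By edgeR no member was called in any of the 5 states, with unadjusted p under 0.05 for Ms4a6b in regulatory T cells alone (−0.50 ± 0.22, adjusted p = 0.437), where 9.16% of all genes were at that level, and DESeq2 called 0 as well. The share of all genes called was 0 in naive and in cytotoxic T cells, 0.739% in regulatory, 0.167% in cycling and 0.441% in unnamed T cells. Splitting the T cell difference of Ms4a4c, 16.9 CPM lower in αPD-1 + corin, into shares of states and levels within states put 100.0% of it on the shares. For Ms4a6b, 20.4% of the difference was in the shares and 79.6% in the levels. This split is arithmetic and has no test.

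In NK cells 0 of 3 members tested were called (0.609% of all genes), with none at an unadjusted p under 0.05 and 0 by DESeq2. Ms4a4b was at −0.14 ± 0.16 there.

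In monocytes 0 of 7 members were called by edgeR and 0 by DESeq2, against 0.708% of all genes by edgeR, and 3 members had an unadjusted p under 0.05, as did 14.2% of all genes. Ms4a4a was at 0.64 ± 0.17 (adjusted p = 0.0917) and Ms4a6d at 0.48 ± 0.14 (adjusted p = 0.136), while Ms4a6c was at 0.04 ± 0.12. Without αPD-1 + corin sample 3, Ms4a4a (0.80, adjusted p = 0.00661) and Ms4a6d (0.56, adjusted p = 0.0463) passed, with 4.1% of all genes called. The macrophage markers, 12 genes, summed to 3032 to 3226 CPM in αPD-1 monocytes and 2651 to 4898 CPM in αPD-1 + corin monocytes. The neutrophil markers, 11 genes, summed to 263 to 317 against 551 to 3729 CPM there, without overlap. The part of either list in these values was not tested.

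In macrophages 0 of 8 members were called by edgeR over all 6 samples, where 0.0344% of all genes were. Of the members, 6 had an unadjusted p under 0.05, as did 17.8% of all genes, and DESeq2 called 2 members and 2.03% of all genes. Ms4a4a was at 1.53 ± 0.50 (adjusted p = 0.207), Ms4a6d at 0.68 ± 0.27 (adjusted p = 0.247), Ms4a6b at 0.66 ± 0.18 (adjusted p = 0.168) and Ms4a7 at 0.45 ± 0.15 (adjusted p = 0.211). Leaving out αPD-1 + corin sample 3, in which Ms4a4a and Ms4a6d were low, raised the share of all genes called to 20.8% and the members called to 5. Ms4a4a was then higher by 1.98 ± 0.19 (adjusted p = 0.000282), Ms4a6d by 0.96 ± 0.13 (adjusted p = 0.00143), Ms4a6b by 0.82 ± 0.13 (adjusted p = 0.00279) and Ms4a7 by 0.49 ± 0.15 (adjusted p = 0.0389). Ms4a1 was the other (−2.70, adjusted p = 0.00376), at 5.91 to 15.6 CPM in αPD-1 macrophages, with 32.4 UMIs per 100 Cd79a UMIs. With 20.8% of all genes called among these 5 samples, whether the count of 5 members is particular to the family was not tested. The sample left out was the one in which Ms4a4a and Ms4a6d were low. These adjusted p-values are thus a description and no support for a change. The same holds for results without that sample in monocytes, macrophage states, dendritic cells and all immune cells. In macrophages the neutrophil list summed to 92.6 to 108 CPM in αPD-1 and 161 to 683 CPM in αPD-1 + corin, without overlap, and the classical monocyte list to 1474 to 2964 against 1599 to 4429 CPM. Their part in the macrophage values was not tested.

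**Figure D4:**
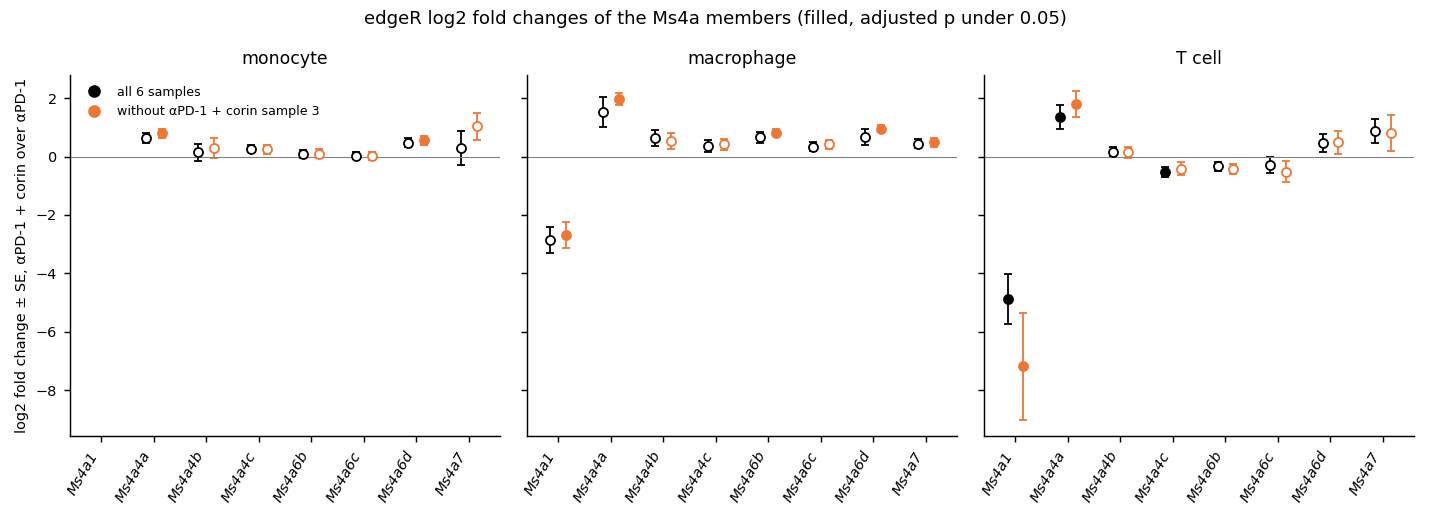
edgeR log2 fold changes ± SE (αPD-1 + corin over αPD-1) of the members in monocytes, macrophages and T cells, with all 6 samples (black) and without αPD-1 + corin sample 3 (orange); filled points have an adjusted p under 0.05. In macrophages Ms4a4a moved from 1.53 to 1.98 and its error from 0.50 to 0.19 when that sample was left out. Ms4a4a and Ms4a6d were low in the macrophages of that sample, so the orange points are a description.

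In the 5 macrophage states that could be tested no member was called with all samples. The Ppbp Ccl24 state was not tested, because 1 αPD-1 sample held only 4 of its cells. The share of all genes called was 1.73% in the Lyve1 Folr2 state, 0 in the hypoxic, 0.0482% in the interferon, 0.0648% in the cycling and 0.628% in the unnamed state. Members at an unadjusted p under 0.05 numbered 2 of 7, 2 of 6, 1 of 6, 3 of 6 and 8 of 8 in these states, where 17%, 11.4%, 5.50%, 7.16% and 18.7% of all genes were at that level. DESeq2 called 1, 1, 0, 1 and 1 member, and 2.13%, 0.453%, 0.0241%, 0.389% and 1.88% of all genes. Ms4a4c in the Lyve1 Folr2 state came nearest (1.39 ± 0.32, adjusted p = 0.0517). Ms4a7 was at 1.62 ± 0.37 in the hypoxic state (adjusted p = 0.125) and 1.15 ± 0.34 in the interferon state (adjusted p = 0.313), against 0.03 ± 0.17 in the cycling state. Without αPD-1 + corin sample 3, Ms4a7 passed in the hypoxic state (1.91, adjusted p = 0.000919; 2.41% of all genes called) and the interferon state (1.70, adjusted p = 0.0210; 0.63%). In the Lyve1 Folr2 state, with 6.74% of all genes called, Ms4a4a (1.52, adjusted p = 0.000480), Ms4a4c (1.44, adjusted p = 0.0114) and Ms4a6d (0.64, adjusted p = 0.0404) then passed. In the cycling state, with 1.03%, Ms4a4a (2.64, adjusted p = 0.00248) and Ms4a6b (1.23, adjusted p = 0.0428) passed, and 7 of 8 members passed in the unnamed state, where 14.1% of all genes did. That the change of Ms4a7 differed between states was not tested.

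Among dendritic cells, cDC1 gave 1 call of 7 members tested (0.884% of all genes). This was Ms4a1 (−3.79 ± 0.42, adjusted p = 0.00594), at 51.0, 32.5 and 66.8 CPM in αPD-1 and 4.72, 3.39 and 2.00 CPM in αPD-1 + corin. It had 36.2 UMIs per 100 Cd79a UMIs there, as in B cells, and the B cell markers in cDC1 summed to 652 to 1045 CPM against 60.1 to 169 CPM. The call was lost without αPD-1 sample 1 (adjusted p = 0.0731) or 3 (adjusted p = 0.0750). With cells carrying UMIs of other lineages left out it no longer passed the filter on low counts. Without αPD-1 + corin sample 3, where 4.85% of all genes were called, Ms4a4a was also tested in cDC1 and passed (3.13, adjusted p = 0.00153), beside Ms4a1 (−3.47, adjusted p = 0.000628). Ms4a4a in cDC1 was at 6.12, 0 and 15.4 CPM in αPD-1 and 84.1, 50.8 and 15.02 CPM in αPD-1 + corin, and its groups overlapped through sample 3. The macrophage list in cDC1 summed to 652 to 1300 against 1329 to 3580 CPM and the classical monocyte list to 1064 to 1579 against 1630 to 2666 CPM. The neutrophil list there summed to 35.2 to 257 against 339 to 1829 CPM. The part of these lists in the Ms4a4a value was not tested. No member was called in cDC2 (0.371% of all genes; 0 at an unadjusted p under 0.05), mature dendritic cells (0.496%; 0) or pDC (0.748%; 1 member and 10.4% of all genes), and DESeq2 called 0 in all 3. In pDC, Ms4a6c was at −0.95 ± 0.35 (adjusted p = 0.361), and −1.59 (adjusted p = 0.0114, with 2.24% of all genes called) without αPD-1 + corin sample 3. In neutrophils edgeR called 0 of 7 members and 0 of all genes, with 1 member and 10.1% of all genes at an unadjusted p under 0.05 and 0 members called by DESeq2, and the αPD-1 samples held 19 to 24 of these cells.

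Over all immune cells together, 2 of 8 members were called, against 12.5% of all genes. Ms4a1 fell from 148, 123 and 175 CPM to 4.48, 5.37 and 1.63 CPM (−5.08 ± 0.48, adjusted p = 0.00746), and Ms4a7 rose from 88.4, 146 and 93.2 to 318, 226 and 165 CPM (1.31 ± 0.32, adjusted p = 0.0480). The groups did not overlap for either gene, but the call of Ms4a7 was lost when any sample other than αPD-1 + corin sample 3 was left out (1.00 to 1.56, adjusted p = 0.0780 to 0.176). Ms4a4a was at 50.1, 53.4 and 71.5 against 241, 176 and 55 CPM (1.64 ± 0.53, adjusted p = 0.0824). Ms4a6d was at 96.3, 122 and 110 against 346, 229 and 121 CPM (1.29 ± 0.39, adjusted p = 0.0715). The ranges of Ms4a4a overlapped through sample 3 of αPD-1 + corin alone. Without that sample 6 of 8 members were called, against 36.7% of all genes, Ms4a4a at 2.10 (adjusted p = 0.00353) and Ms4a6d at 1.65 (adjusted p = 0.00574) among them. Ms4a4b was then called lower (−0.997, adjusted p = 0.0430), against −0.196 with all samples. DESeq2 called 4 members and 25.9% of all genes with all samples.

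The difference of these sums was split into the shares of UMIs that each class held and the levels within classes. The clusters with markers of 2 lineages entered this split as a class of their own, with 24.0% of immune UMIs in αPD-1 and 8.75% in αPD-1 + corin. For Ms4a7, 62.6% of the difference came from class shares and 37.4% from levels. For Ms4a6c, 81.5% came from class shares, and for Ms4a4a 25.7%, with 74.3% from levels. Ms4a6d was split evenly, 49.4% and 50.6%. For Ms4a1, 58.7% came from class shares, as B cells were 22.0% of immune cells in αPD-1 and 0.750% in αPD-1 + corin in the mean. Of the −59.7 CPM put on levels for Ms4a1, −32.0 came from the clusters with markers of 2 lineages (202 against 6.07 CPM) and −15.4 from B cells. Those clusters also gave 9.19 of the 10.5 CPM put on levels for Ms4a6c, and no more than 11.7 CPM for Ms4a4a, Ms4a6d and Ms4a7. Macrophages held 25.2% of immune UMIs in αPD-1 and 47.2% in αPD-1 + corin. Of the 73.6 CPM put on levels for Ms4a4a, 57.0 came from macrophages. Within macrophages, the state shares gave −0.17% of the Ms4a7 difference, 35.1% of that of Ms4a4a and 55.9% of that of Ms4a6d. Part of the macrophage level of Ms4a4a is thus the make-up of states.

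**Figure D5:**
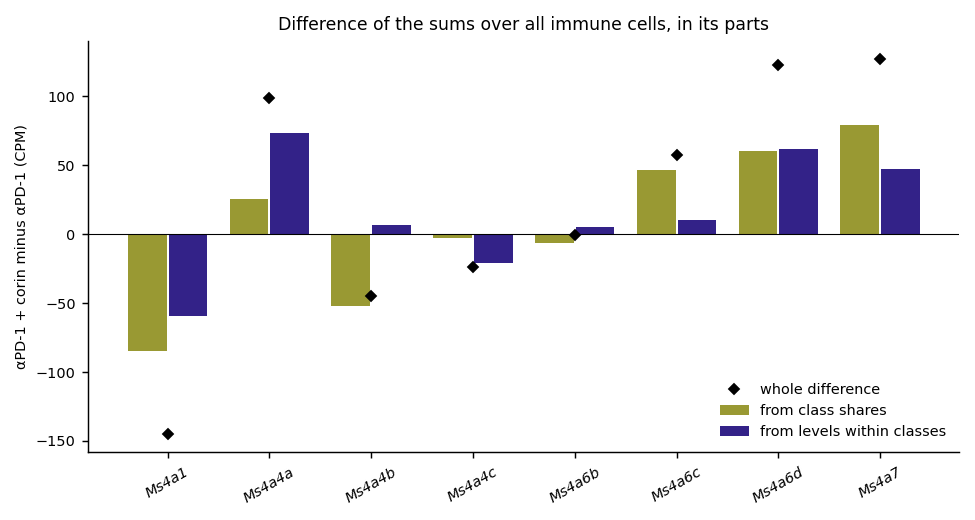
Difference of the mean CPM over all immune cells (αPD-1 + corin minus αPD-1; diamonds) for the 8 members, and its parts from class shares (olive bars) and from levels within classes (indigo bars), with the clusters of 2 lineages as a class of their own. Ms4a7 and Ms4a6c rest mainly on class shares (62.6% and 81.5%), and Ms4a4a on levels (74.3%). Of the 73.6 CPM on levels for Ms4a4a, 57.0 came from macrophages, where state shares made 35.1% of its difference.

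Partners of the Ms4a proteins and related receptors, a list of 15 genes, were read beside the members. In T cells, where 18.8% of all genes were called, 3 of 12 tested were higher. These were Tyrobp (0.79 ± 0.22), which encodes the adaptor DAP12, Tnfrsf18 (0.69 ± 0.19), which encodes GITR, and Fcer1g (0.65 ± 0.21), which encodes an Fc receptor chain. Samples of Tnfrsf18 were at 166, 144 and 149 CPM in αPD-1 and 305, 274 and 159 CPM in αPD-1 + corin, with overlap. Those of Fcer1g, at 70.5, 121 and 70.1 against 170, 128 and 120 CPM, also overlapped. No gene of the list was called higher in a T cell state. The B cell receptor genes Cd79a (−3.33 ± 0.46) and Cd79b (−1.85 ± 0.38) were lower in T cells, with the B cell list given above. Macrophage markers in T cells summed to 122 to 205 CPM in αPD-1 and 207 to 357 CPM in αPD-1 + corin, and neutrophil markers to 49.2 to 57.4 against 107 to 389 CPM, beside the monocyte lists given above. Their part in the higher values of Tyrobp and Fcer1g was not tested. The list's median was 0.19 there, against −0.00126 over all genes. In macrophages edgeR called 0 of 14, with 4 at an unadjusted p under 0.05 (17.8% of all genes) and 2 called by DESeq2 (2.03%). Over all immune cells, where 12.5% of all genes were called, Cd79a, Cd79b and the tetraspanin gene Cd37 were lower and none higher, of 14 tested. In the other classes and states tested, 2 genes of the list were higher. Cd4, the T cell coreceptor gene, was higher in pDC (1.02 ± 0.22, adjusted p = 0.0384), at 111, 136 and 119 against 210.3, 311 and 204 CPM, where 0.748% of all genes were called. The T cell markers in pDC summed to 211 to 494 against 269 to 642 CPM, with overlap. The classical monocyte markers there summed to 4348 to 5092 against 5286 to 5767 CPM, without overlap. Their part in the Cd4 value was not tested. Tnfrsf4, which encodes OX40, was higher in the unnamed macrophage state (3.51 ± 0.57, adjusted p = 0.0319; 0.628% of all genes), at 0.362 to 0.515 against 3.73 to 7.05 CPM. Those lower were Cd79a in monocytes, cDC1, cDC2, pDC and cycling T cells, and Cd79b in cDC1 and cDC2.

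Of the other 11 genes with an Ms4a symbol, 2 reached 20 CPM in a class. A further 2 genes of the family stand in the gene list under other symbols and were not analysed here. Ms4a8a was at 52.1 ± 11.5 CPM in monocytes, and at 26.8, 23.8 and 35.0 against 78.9, 72.8 and 29.0 CPM in macrophages (1.24 ± 0.35, adjusted p = 0.173), with the same low sample 3 as Ms4a4a. Ms4a14, which lies beside Ms4a7, was at 34.6 ± 6.47 CPM in macrophages, with overlapping groups (−0.16 ± 0.18, adjusted p = 0.648), and at no more than 14.8 CPM in any sample of another class.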

How the data were processed

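Single-cell RNA libraries of 6 samples (10x 5′ chemistry) were deposited as matrices of UMI counts per gene and cell barcode, which the authors made with Cell Ranger 8.0 per the labels, on a GRCm39 reference, a build that the files themselves do not state. The deposited counts were not normalized, and 0 columns were left unused. Members and lists were chosen with earlier results of these data known. Named genes were all 8 members, for each the 3 genes most alike over class means, and the other family genes at 20 CPM or more in a class. One gene that this rule names is not reported here.

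Barcodes passed with between 600 and 4000 genes and no more than 10% of UMIs from mitochondrial genes, and 2002 doublets called with Scrublet at a preset rate were removed, because its own threshold called 0. Clustering used Seurat 5.3.0 and sctransform 0.4.2 (20 components, resolution 0.8) without the Ms4a and marker genes, which left 2773 variable genes and gave 25 clusters. Classes were named from fixed markers. UMIs were summed per sample and class, and samples with under 5 cells were left out. Cells with UMIs of other lineages were those with at least 2 UMIs of a T cell, B cell or macrophage list outside their own lineage. No other marker list was used for this. edgeR 4.0.16 (quasi-likelihood, TMM, Benjamini-Hochberg) gave the tests, and DESeq2 1.42.0 was an alternative. The standard error is the fold change divided by the square root of F. Shares of cells with a UMI were computed after thinning to 1000 UMIs and compared by a two-sided exact permutation test. Intervals are exact Poisson and the floor is 3 UMIs, both for counting error only.

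On simulated counts with 200 genes changed 4-fold, 190 of 197 tested genes were found in macrophages, with 15 false calls, 189 of 194 in T cells, with 23, 184 of 192 in monocytes, with 8, and 163 of 165 in NK cells, with 5. In macrophages and T cells the false calls were a larger share of all calls than the threshold of 0.05. Gene positions are from GENCODE (GRCm39), to which 31674 of 32285 gene IDs were matched; the matrices carry no coordinates.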

Additional observations from a re-analysis of the deposited data

Results flagged for a closer look

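Among classes with values from all 6 samples and a mean of at least 100 CPM in either group, 2 members had every αPD-1 + corin sample above every αPD-1 sample in some classes and below in others. The difference between classes was not tested. The share of all genes that meet this rule was not counted, so the count cannot be read as a trait of the family. For Ms4a4c the log2 ratio of group means was 0.27 in monocytes, against −1.60 in B cells and −0.35 in mature dendritic cells. For Ms4a6b it was 0.52 in macrophages, against −0.41 in T cells and −0.39 in NK cells. In B cells the αPD-1 + corin values rest on 2, 7 and 4 UMIs of Ms4a4c.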

How the results depend on the processing

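The number of members called by edgeR moved with single samples, the filter on low counts and the clustering. Leaving out each sample in turn gave 1 to 6 called members over all immune cells (0.322% to 36.7% of all genes), 1 to 2 in B cells (0.647% to 9.92%), 1 to 3 in T cells (8.81% to 18.1%), 0 to 5 in macrophages (0 to 20.8%), 0 to 2 in monocytes (0.197% to 4.1%), 0 to 2 in cDC1 (0 to 4.85%) and 0 to 1 in pDC (0.0876% to 2.24%). The percentages in this paragraph are the share of all genes called under the same setting. DESeq2 called 4 members over all immune cells (25.9%), 1 in T cells (10.99%) and 2 in macrophages (2.03%). Without the filter on low counts, 2 were called in monocytes (1.85%), 4 in macrophages (3.55%), 4 in cDC1 (2.77%), 1 in cDC2 (1.58%), 1 in mature dendritic cells (0.541%), 2 in pDC (1.41%) and 2 in neutrophils (0.9754%). When the upper gene limit was dropped, 1 was called over all immune cells (6.33%), 1 in T cells (10.6%), 1 in monocytes (3.11%) and 1 in macrophages (0.230%). With at most 5% mitochondrial UMIs, 1 was called in B cells (1.30%), 0 in T cells (17.97%) and 1 in macrophages (0.168%). At resolution 0.4, 1 was called in each of T cells (20.2%), monocytes (0.817%) and macrophages (0.106%), and at resolution 1.2, 1 in T cells (17.3%). Leaving out cells with UMIs of other lineages gave 1 in T cells (19.6%) and 0 in cDC1 (0). Leaving out the clusters led by Camk1d and Gphn, an alternative added after seeing the data, gave 1 in T cells (19.8%) and 1 in macrophages (0.181%). LogNormalize gave 1 in T cells (19.5%), a count that also moved with the linear algebra library settings used for that clustering. LogNormalize (0) and clustering with markers kept (0.0207%) each gave 0 in cDC1, and no doublet removal gave 1 in cDC2 (1.24%). The cause of these changes was not tested.

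With the replicate number as a replicate block, 1 member was called over all immune cells (0.842% of all genes), 1 in macrophages (0.273%) and 1 in pDC (1.63%). Samples with the same number did not deviate together over all immune cells (correlations of −0.0283 or less). In T cells αPD-1 sample 1 was most like αPD-1 + corin sample 1 (0.188), as in B cells (0.0449) and NK cells (0.0212). Samples 2 and 3 were not most like their own number in any class compared. With 3 samples per group, these values cannot decide whether the numbers pair the samples.

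Mean levels moved by more than 1 SD at resolution 0.4 alone, to 387 CPM for Ms4a1 in B cells, 399 CPM for Ms4a6b and 955 CPM for Ms4a6c in monocytes, and clusters for cDC2, regulatory T cells and the Ppbp Ccl24 state were then not found. The share of monocytes with an Ms4a6c UMI was 0.81 percentage points higher in αPD-1 + corin, and changed sign without thinning (−1.74). Leaving out 1 sample at a time gave −1.16, without αPD-1 + corin replicate 2, to 2.6. The fall of Ms4a4c in B cells kept its call under every alternative run, at −1.47 to −2.44. The call of Ms4a4a in T cells was lost without any 1 of the αPD-1 samples or without αPD-1 + corin sample 2 (adjusted p = 0.0593 to 0.205), with DESeq2 (0.0708), with no upper gene limit (0.102), with no doublet removal (0.148) and with markers kept for clustering (0.0742). Depth limits what could be seen in classes and states with few cells in some samples, among them plasma cells, B cells and naive T cells of αPD-1 + corin, and neutrophils and mature dendritic cells of αPD-1.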
